A study of Mus musculus with 3 samples.

Results

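The 10 genes Ptprz1, Gap43, Dpp6, Ly6h, Cd24a, Stmn1, Spock3, Tmem132b, Fam159b and Tspan8, known mainly from nerve tissue or cell surfaces, were described across the cells of mouse pancreatic islets. They are 10 of 16157 genes listed for the first library and of 32285 listed in the other table, and they were chosen by their RNA levels in these same data, which were higher in somatostatin cells, called delta cells, than in other islet cells. Their level in delta cells against other cells is therefore given as a description, with no test. Of the 10, 9 stood higher in delta cells than in beta and alpha cells in both tables, and Stmn1 did so in the joint table alone.

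Single-cell RNA was counted by the 10x 3-prime method in islets that came from 6 mice, all Ngn3-CreERT:R26-CAG-TdTomato, collected 10 days after they were given tamoxifen, and every sample belongs to this 1 group. Ngn3 is another name of Neurog3, the gene whose promoter drives the Cre recombinase, and the recombined reporter allele makes the red protein TdTomato. Replicate 1 is called library 1 here, and replicates 2 and 3, each from 2 pooled mice, were deposited as 1 joint table of 3 barcode blocks that no label ties to a replicate. There were thus 2 tables to compare, the blocks serve as further values and not as replicates, and no untreated or Cre-negative sample was analysed.

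Islet delta cells release somatostatin, which restrains insulin and glucagon release from neighbouring beta and alpha cells, and they reach those neighbours through long processes that resemble those of neurons. Several of the genes make parts of such processes or of excitable membranes. Ptprz1 is a receptor-type tyrosine phosphatase of glia that binds the growth factor pleiotrophin, Gap43 is a growth-cone protein on the inner face of the membrane, and Dpp6 is an accessory subunit of Kv4 potassium channels. Ly6h and Cd24a are anchored to the outer face by a lipid, Spock3 is a secreted proteoglycan, Tmem132b and Fam159b are predicted membrane proteins, and Tspan8 is a tetraspanin known mainly from epithelia. Stmn1, or stathmin, is not a surface protein: it is a cytosolic regulator of microtubules that is abundant in dividing cells.

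After filters on depth, 859 cells remained in library 1 and 11449 in the other table. Hormone RNA per 10000 UMIs set the endocrine classes: at least 3000 for Ins1 plus Ins2, and at least 200 for Gcg, Sst or Ppy. Delta cells, which passed for Sst alone, numbered 25 and 232 in the 2 tables, beta cells 470 and 7190, alpha cells 104 and 937, and PP cells, which make pancreatic polypeptide, 18 and 254. Cells that passed for Sst and insulin numbered 8 and 123, and cells that passed for Sst and Ppy 42 and 369. Cells with no hormone were named from marker genes, which gave 3 and 39 Schwann-like cells, the glia of islet nerves. Median depth was 11000 and 5526 UMIs in delta cells, 39329.5 and 20062 in beta cells, and 4459 and 2037 in Schwann-like cells. Library 1 and the joint table shared 6 barcodes, and the blocks shared 6, 4 and 4 with one another, with 0 identical columns between blocks.

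The delta label was checked on markers that the hormone rule did not use. Hhex, a transcription factor of delta cells, stood at 2.39 and 2.19 per 10000 UMIs in delta cells of the 2 tables and at 0.0153 and 0.0113 in beta cells. Rbp4, the retinol carrier, stood at 57.4 and 31.6 in delta cells, with the next level in alpha cells, at 7.24 and 4.89. Ghsr and Ffar4 also had UMIs in delta cells of both tables, while the Schwann markers Sox10 and S100b were at 0 there. RNA of other cells was present too: insulin RNA (Ins2) stood at 221 and 712 per 10000 UMIs in delta cells, and the summed level of 7 acinar markers was 7.20 in delta cells of the joint table, against 0.54 for the 6 listed in library 1. Its part in the levels below was not tested.

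The windows around the transcription start of the genes differ in base composition. They are given from 250 bases before to 50 bases after the start, in RefSeq for the build GRCm38.p6, for a gene that Schwann-like cells also carry (Ptprz1), the gene with the one motif match (Dpp6) and a gene that is high in PP cells too (Tspan8).
Ptprz1, plus strand, chr6:22875252-22875551: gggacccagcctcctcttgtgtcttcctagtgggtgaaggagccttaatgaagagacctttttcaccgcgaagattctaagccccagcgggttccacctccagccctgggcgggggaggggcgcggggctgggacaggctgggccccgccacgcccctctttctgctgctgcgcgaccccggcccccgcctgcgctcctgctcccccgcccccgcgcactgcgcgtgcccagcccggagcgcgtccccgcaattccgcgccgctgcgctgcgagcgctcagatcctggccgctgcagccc
Dpp6, plus strand, chr5:26817107-26817406, with the motif match in capitals: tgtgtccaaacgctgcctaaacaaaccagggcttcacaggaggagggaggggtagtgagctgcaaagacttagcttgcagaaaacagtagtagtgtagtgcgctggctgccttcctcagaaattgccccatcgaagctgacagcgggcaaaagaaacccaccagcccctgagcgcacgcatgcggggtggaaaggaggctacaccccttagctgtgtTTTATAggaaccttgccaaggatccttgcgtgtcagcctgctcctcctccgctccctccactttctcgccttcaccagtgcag
Tspan8, plus strand, chr10:115817034-115817333: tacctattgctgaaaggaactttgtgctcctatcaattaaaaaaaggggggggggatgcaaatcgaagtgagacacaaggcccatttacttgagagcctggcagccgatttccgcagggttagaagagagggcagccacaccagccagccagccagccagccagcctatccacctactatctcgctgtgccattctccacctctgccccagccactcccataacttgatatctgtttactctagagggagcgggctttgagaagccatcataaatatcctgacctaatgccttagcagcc
The Ptprz1 window held 71.7% G and C and 29 CpG pairs, more G and C than 92.6% of 32851 RefSeq windows of this length. The Dpp6 window held 56.0% and 10 pairs, the Tspan8 window 51.7% and 5 pairs, and the median of all windows was 52.7% and 7 pairs. The motifs searched, on both strands, were the E-box CAGATG, a kind bound by Neurog3 and related factors, the homeodomain core TAATTA, the left part of the RE1 element TTCAGCACC, which the neuronal repressor REST binds, and the TATA box TATAAA. They occur in 17.2%, 5.29%, 0.371% and 13.6% of all windows. In the 9 windows listed for 6 of the genes, the one match was TATAAA on the minus strand of the Dpp6 window, at bases 218 to 223. Dpp6 has 3 listed starts and Spock3 2, and reads from the 3-prime end do not tell which start was used.

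Ptprz1 (chromosome 6, 22875502 to 23052916, plus strand, in the GENCODE annotation of GRCm38, the build also called mm10) had 1.75 UMIs per 10000 UMIs in delta cells of library 1 and 1.57, 1.87 and 1.65 in blocks 1, 2 and 3 of the joint table. With the joint table taken whole it was 1.67, with a 95% Poisson interval of 1.46 to 1.89, and the interval in library 1 was 1.31 to 2.29. The 4 delta values thus lay within a narrow range. In beta cells the level was 0.0114 in library 1 and 0.00833 in the joint table, in alpha cells 0.00692 and 0.0369, and in PP cells 0 and 0.0358. The delta level was 154 times the beta level in library 1 and 200 times in the joint table. A UMI of Ptprz1 was present in 21 of 25 delta cells of library 1 and in 121 of 232 of the joint table, with median depths of 11000 and 5526 UMIs.

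Gap43 (chromosome 16, 42248442 to 42340651, minus strand) stood at 1.55 per 10000 UMIs in delta cells of library 1 and at 1.71, 1.28 and 1.48 in the blocks. Beta cells had 0.00593 and 0.00731 in the 2 tables. Dpp6 (chromosome 5, 26817203 to 27727505, plus strand) stood at 1.82 in delta cells of library 1 and at 2.12, 2.33 and 1.79 in the blocks. Alpha cells ranked next among the single-hormone classes for Dpp6, with 0.0830 and 0.105. The growth-cone gene and the channel subunit were thus separated from the other single-hormone classes by a ratio of 15.3 or more in every table and block where both classes had UMIs.

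Ly6h (chromosome 15, 75551268 to 75567255, minus strand) stood at 2.79 per 10000 UMIs in delta cells of library 1 and at 2.72, 2.55 and 2.64 in the blocks, a narrower range for its size than any other of the 10. Cd24a (chromosome 10, 43578284 to 43584265, plus strand) stood at 4.71 in library 1 and at 3.82, 5.35 and 3.85 in the blocks. Spock3 (chromosome 8, 62951009 to 63357103, plus strand) stood at 0.807 and at 0.893, 0.733 and 0.879. In alpha cells Spock3 had 0 UMIs in library 1 and 1 UMI in 937 cells of the joint table, the lowest level of the 3 genes there. Cd24a in alpha cells was less even than the others, at 0.132 in block 1 and 0.0321 and 0.0239 in blocks 2 and 3, and 17 of its 62 alpha UMIs of the joint table came from 1 cell.

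Among the single-hormone classes, Tmem132b, Fam159b and Tspan8 were the 3 of the 10 genes whose mean over cells reached 0.1 per 10000 UMIs in at least 2 columns of beta, alpha and PP cells, where a column is 1 class in 1 table. Tmem132b (chromosome 5, 125531774 to 125792583, plus strand) stood at 0.975 per 10000 UMIs in delta cells of library 1 and at 0.717, 0.597 and 0.660 in the blocks, and in beta cells at 0.0984 and at 0.107, 0.1102 and 0.1205. The delta level was thus 9.91 and 6.00 times the beta level in the 2 tables, the smallest delta-to-beta ratio of the 9 genes that were high in delta cells. Fam159b (chromosome 13, 104845283 to 104863893, minus strand, listed as Shisal2b in the joint table) stood at 9.08 in delta cells of library 1 and at 6.59, 6.51 and 6.40 in the blocks, and in beta cells at 0.250 and at 0.143, 0.133 and 0.144. Tspan8 (chromosome 10, 115816832 to 115849893, plus strand) stood at 4.14 in delta cells of library 1 and at 3.45, 3.88 and 3.93 in the blocks. In PP cells Tspan8 stood at 7.29 and at 4.999, 5.66 and 4.85, above the delta value of the same library or block in all 4 cases.

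**Figure D1:**
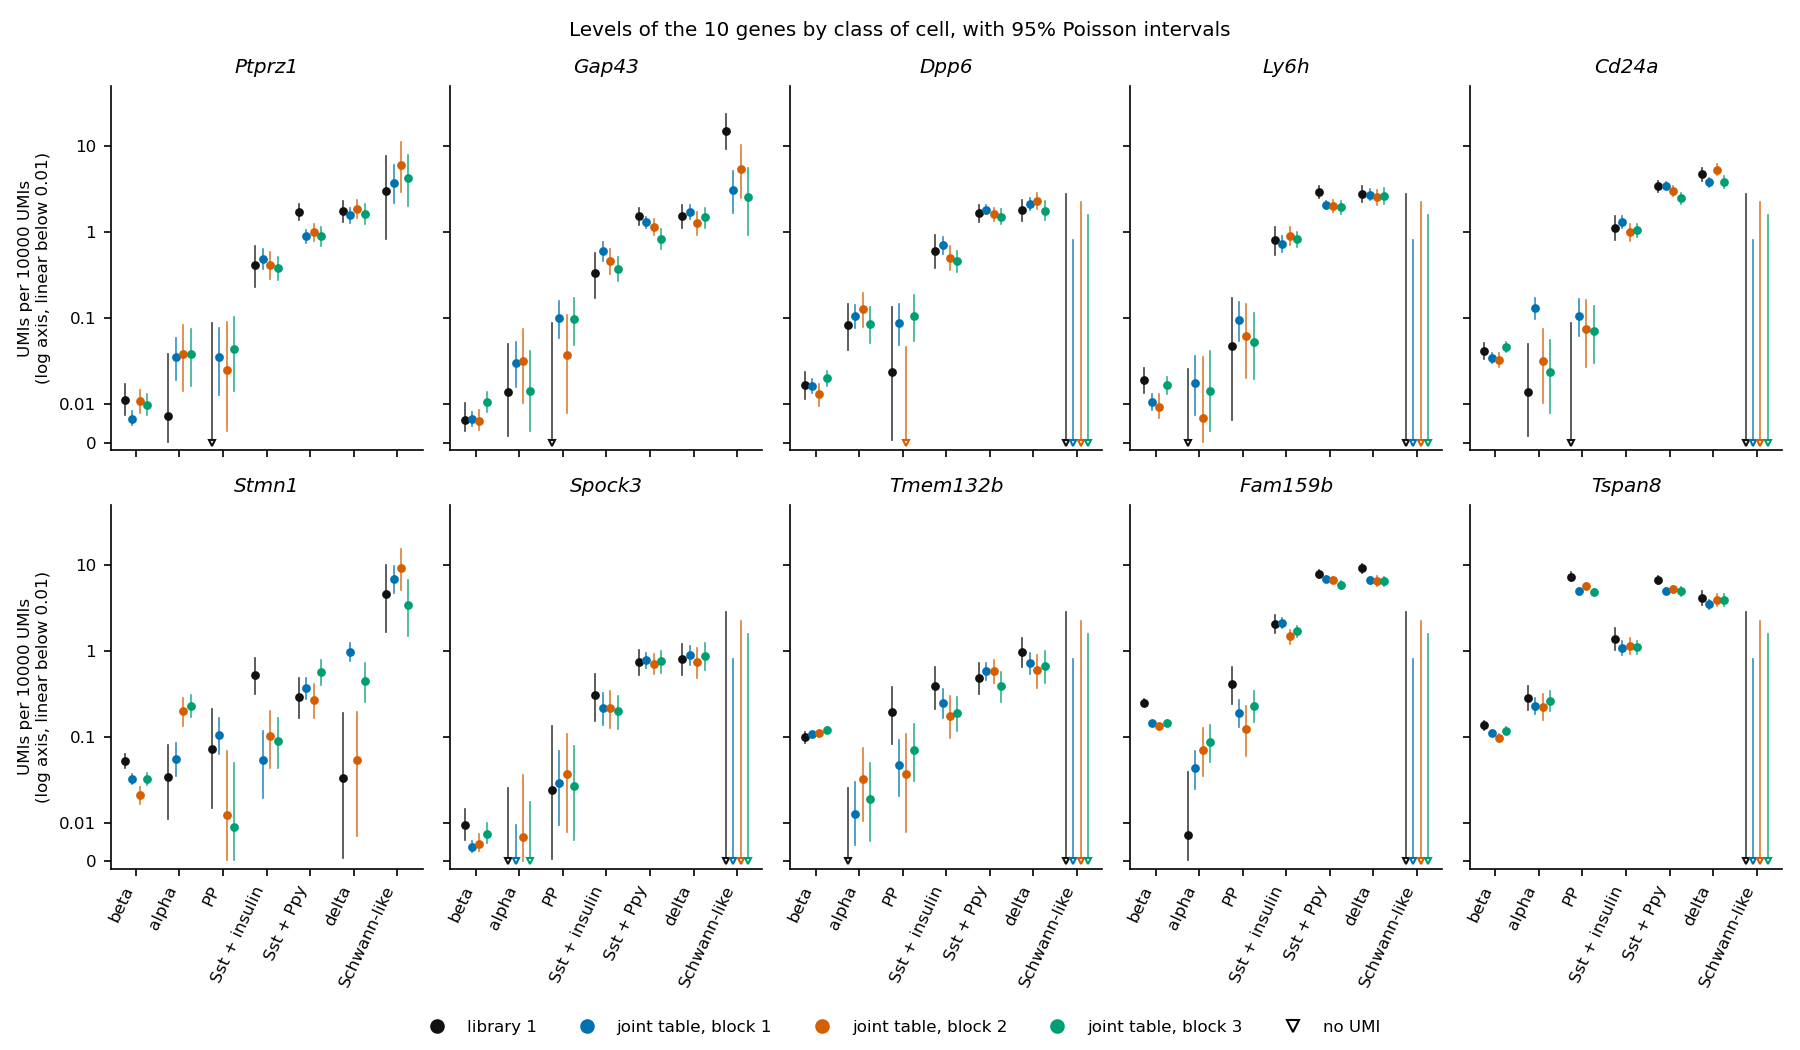
Level of each gene in UMIs per 10000 UMIs (log axis, linear below 0.01) in 7 classes of cell, with 1 point for library 1 and 1 for each of 3 barcode blocks of the joint table, 95% Poisson intervals for counting error as lines, and open triangles where no UMI was found. Delta and Sst plus Ppy cells lie above beta and alpha cells for 9 genes, Stmn1 is scattered, Tspan8 is also high in PP cells, and Ptprz1, Gap43 and Stmn1 are present in Schwann-like cells.

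Insulin takes a large share of the UMIs of beta cells, so levels were also taken with the main hormone RNAs, Iapp and Pyy left out of the total of each cell. Delta cells then had 2.36 and 2.42 Ptprz1 UMIs per 10000 in the 2 tables, and beta cells 0.0358 and 0.0272. For Fam159b the delta level was 12.3 and 9.45 and the beta level 0.787 and 0.461. Tmem132b came to 1.32 and 0.972 in delta cells and to 0.310 and 0.365 in beta cells. Delta cells stayed above beta cells for all 3 genes in both tables.

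The few UMIs in beta cells were also described by the ratio of each gene to Sst. Sst itself sorted the cells: beta cells lay below its minimum and delta cells at or above it. This rule can raise the ratio in beta cells, so the ratio cannot tell whether those UMIs came with somatostatin RNA. That was not tested. Beta cells of the joint table had 2.14 Ptprz1 UMIs per 1000 Sst UMIs and delta cells had 1.20. For Gap43 the ratios were 1.87 in beta cells and 1.10 in delta cells. For Fam159b they were 36.2 in beta cells and 4.68 in delta cells, and for Tspan8 28.2 and 2.64. In library 1, Fam159b had 67.9 in beta cells and 6.04 in delta cells. The Fam159b and Tspan8 counts of beta cells were thus further above those of delta cells, against Sst, than the Ptprz1 and Gap43 counts were.

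Cells differ in depth, so each was thinned to 2000 UMIs to ask how many of the 10 genes 1 cell carried. In library 1 a thinned delta cell had a UMI of 3.92 of the genes on average, and 22 of 25 cells, or 88.0% (exact 95% interval 68.8% to 97.5%), had 3 or more. In the joint table the mean was 3.19, and 145 of 216 cells, or 67.1% (60.4% to 73.4%), had 3 or more. No alpha or beta cell of library 1 had 3 or more, among 101 and 468 cells. In the joint table, 1 of 900 alpha cells, 6 of 7106 beta cells and 4 of 251 PP cells did. The trait was not particular to delta cells: 31 of 42 Sst plus Ppy cells of library 1 and 241 of 362 of the joint table had 3 or more. So did 33 of 90 cells with Gcg and Sst, 16 of 116 with Sst and insulin and 3 of 20 Schwann-like cells of the joint table. Among macrophage-like cells, 1 of 35 and 14 of 225 had a UMI of any of the 10, which is 2.86% and 6.22%, and 0 had 3 or more. Stmn1 gave 1 and 8 of these cells and was high in the few with cell-cycle RNA, so the share is background only for the other 9 genes, each found in at most 2 of the 225 cells. The share with any gene was 10.3% and 7.84% in beta cells and 11.9% and 11.8% in alpha cells, with median depths before thinning of 7178 and 3441 UMIs in macrophage-like cells.

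Gene by gene at this depth, Fam159b had a UMI in 18 of 25 delta cells of library 1 and 150 of 216 of the joint table, Cd24a in 15 and 115, and Tspan8 in 20 and 100. Ptprz1 had one in 36.0% and 27.8%, and Spock3 in 16.0% and 13.4%. In beta cells Ptprz1 had one in 0.214% and 0.0844%, at or below the macrophage-like share of the joint table, 0.444%. Fam159b had one in 5.13% and 2.70% of beta cells and in 0 of 35 and 0.889% of macrophage-like cells. Across the 216 thinned delta cells of the joint table, Spearman's rho between pairs of genes ran from -0.0827 to 0.134 with a median of 0.00690 over 45 pairs. These correlations are between sparse counts of cells from 1 table.

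**Figure D2:**
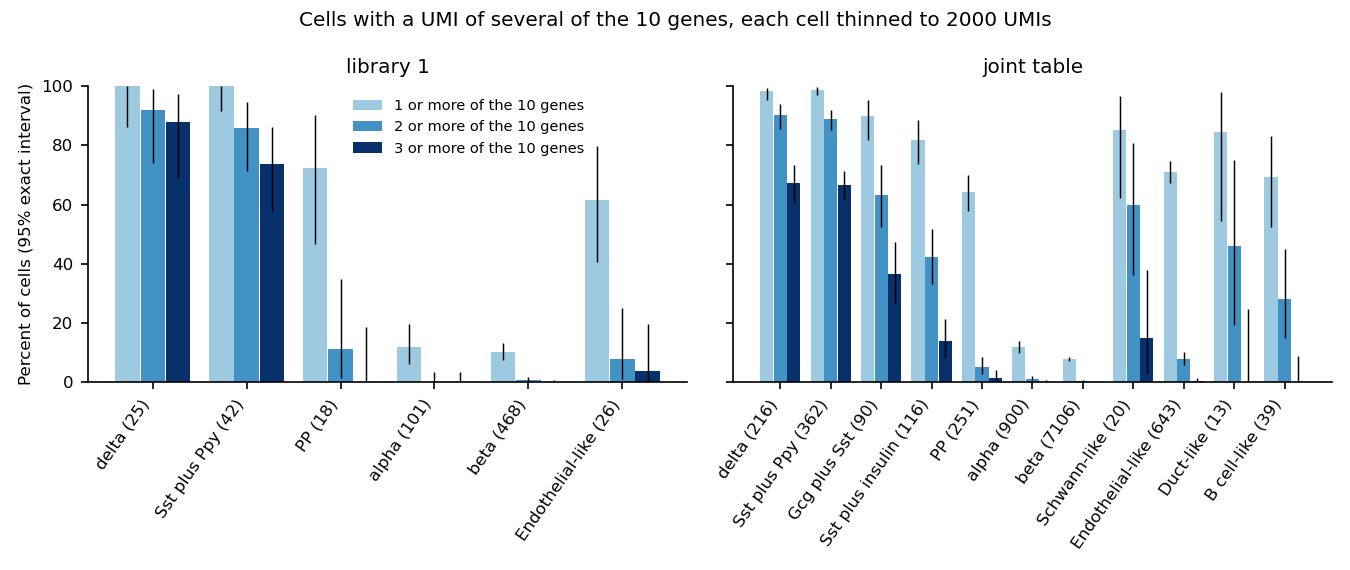
Percent of cells in which at least 1, 2 or 3 of the 10 genes had a UMI after each cell was thinned to 2000 UMIs, by class of at least 10 thinned cells and by table, with exact 95% intervals and the number of cells in brackets. At least 3 genes were found in 88.0% and 67.1% of delta cells and in 73.8% and 66.6% of Sst plus Ppy cells. They were found in 0 of 18 and 4 of 251 PP cells and in at most 0.111% of alpha and beta cells.

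Stmn1 (chromosome 4, 134468320 to 134473843, plus strand) went against the label of the set. It had 1 UMI in the 25 delta cells of library 1, a level of 0.0336 per 10000 UMIs, and 0.981, 0.0543 and 0.440 in blocks 1, 2 and 3. The intervals of blocks 1 and 2 did not overlap. Over the 3 blocks 85 Stmn1 UMIs were counted in delta cells, and 73 of them, or 85.9%, lay in 3 cells. Those were the 3 delta cells with UMIs of at least 3 of 6 cell-cycle genes (Mki67, Top2a, Birc5, Cdk1, Ccna2 and Cenpf), with 49, 16 and 8 Stmn1 UMIs. The other 229 delta cells had 12 UMIs, a level of 0.0862 per 10000 (0.0446 to 0.151), beside 0.0662 in 935 alpha cells that also had fewer than 3 of the cell-cycle genes.

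The same held in cells with Sst and Ppy, where 104 of 112 Stmn1 UMIs of the joint table lay in the 5 cells with 3 or more cell-cycle genes and 12 of 15 of library 1 in 1 such cell. In beta cells of the joint table, 22 cells with 3 or more cell-cycle genes had 4.11 Stmn1 UMIs per 10000 and the other 7168 had 0.0112. Schwann-like cells differed: 0 of 39 had 3 or more cell-cycle genes, and 24 of 39 had Stmn1, at 6.32 per 10000 UMIs (4.75 to 8.25) and at most 7 UMIs in a cell. Outside the few cells with cell-cycle RNA, Stmn1 in delta cells lay near its alpha level.

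**Figure D3:**
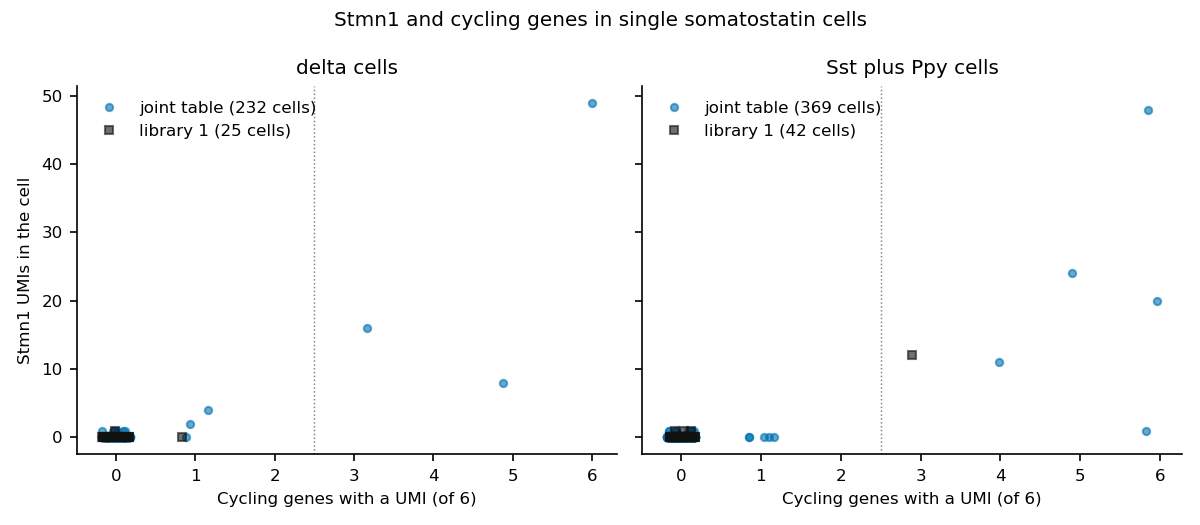
Stmn1 UMIs in each delta cell (left) and each Sst plus Ppy cell (right) against the number of 6 cell-cycle genes with a UMI, with a small sideways spread, circles for the joint table, squares for library 1 and a dotted line before 3 genes. The 3 delta cells right of the line hold 73 of 85 Stmn1 UMIs of the joint table.

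Of the 10 genes, 3 had UMIs in Schwann-like cells: Ptprz1 and Gap43, which were also high in delta cells, and Stmn1. Their leading genes included Fabp7, Fxyd1, Cryab and the list marker S100b. Ptprz1 stood at 4.33 per 10000 UMIs there (3.05 to 5.97), with 3.74, 6.08 and 4.25 in the blocks, and at 3.02 in the 3 cells of library 1. Gap43 stood at 3.39 (2.27 to 4.87) in the joint table and at 15.1 in library 1, where 17 of the 20 UMIs came from 1 cell. Both genes were higher in Schwann-like than in delta cells in each of the 3 blocks. The other 7 genes had 0 UMIs in 39 and 3 Schwann-like cells, and 3 UMIs would have made 0.351 per 10000 in the joint table, below the delta level of each of these 7. Schwann-like cells were shallow and few, and library 1 is too thin to bear on any of the 7.

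Outside endocrine and glial cells, Cd24a, Stmn1 and Tspan8 were each present in several classes. Cd24a stood at 7.42 and 6.72 per 10000 UMIs in endothelial-like cells, above its delta level in both tables, at 4.15 in 13 duct-like cells and at 3.23 in 47 B-cell-like cells of the joint table. Tspan8 stood at 3.35 in duct-like cells, whose interval overlapped that of delta cells. Stmn1 stood at 2.19 in 38 B-cell-like cells of the joint table with fewer than 3 of the cell-cycle genes and at 10.2 in the other 9. In endothelial-like cells with fewer than 3 it stood at 1.33 in library 1, where 13 of 26 cells had it, and at 0.360 in the joint table, where 83 of 759 did. Dpp6, Ly6h and Spock3 reached no more than 0.00698 in endothelial-like cells of the joint table. Delta cells were therefore among the highest of several classes for Cd24a and Tspan8. Among classes of at least 10 cells, delta and Sst plus Ppy cells were the highest in both tables for Dpp6, Ly6h, Spock3, Tmem132b and Fam159b, while the 1 duct-like cell of library 1 had 2 Spock3 UMIs, a level of 1.997 (0.242 to 7.21).

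The genes were next compared among beta, alpha and PP cells. The choice of the genes set delta cells against these same cells, but not the 3 classes against one another. The fit used limma on log2 of the mean per 10000 UMIs plus 0.05, with columns centred on their median. Benjamini-Hochberg adjustment was over 8589 genes. The p-values rest on the spread between 2 tables, which limma moderates over all genes. Of the 10 genes, 7 passed the filter on low values only through their delta columns. Tests are given for Tmem132b, Fam159b and Tspan8, which passed it without them. Tspan8 reached it in all 6 columns of the 3 classes, Fam159b in 4 and Tmem132b in 3. For Fam159b and Tmem132b the filter thus leaned on classes where they were higher than in alpha cells, which limits their tests against alpha cells. Alpha cells had less Fam159b than beta cells, by 2.29 on the log2 scale (SE 0.34, adjusted p = 3.69e-04), and by -3.08 and -1.496 when each table was taken alone. They also had less Tmem132b, by 2.19 (SE 0.36, adjusted p = 8.34e-04), with -2.40 and -1.99. These 2 of the 3 genes passed, where 7.29% of all genes were lower in alpha cells and 7.59% higher. With no centring both were still called lower, and all genes split into 3947 higher and 245 lower in place of 652 and 626.

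Tspan8 had the largest difference of the 3 genes in PP cells. It was higher than in beta cells by 4.87 on the log2 scale (SE 0.15, adjusted p = 4.20e-10 in limma) and higher than in alpha cells by 4.71 (SE 0.15, adjusted p = 6.40e-10), with the same direction in both tables. Against beta cells it was the one of the 3 to pass, where 7.73% of all genes were higher and 6.01% lower in PP cells. Against alpha cells all 3 passed, where 2.19% of all genes were higher and 1.96% lower: Tspan8, Fam159b by 2.60 (SE 0.34, adjusted p = 6.21e-04) and Tmem132b by 1.77 (SE 0.36, adjusted p = 0.0123). Somatostatin RNA moved with these in the joint table, at 14.0 per 10000 UMIs in PP cells and 4.68 in alpha cells, and not in library 1, at 0.529 and 1.63. Its part in these differences was not tested. The Tmem132b call was lost with a pseudocount of 0.5, with no filter on low values and with no replicate block. Ly6h had 2 UMIs in 1 PP cell of library 1 and 27 UMIs in 10 PP cells of the joint table.

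In the main fit Fam159b and Tmem132b were thus called higher in beta and PP cells than in alpha cells. Without delta columns both reached the filter through classes where they are higher than in alpha cells, so these calls are limited. Tspan8 was higher in PP cells than in both other classes. For Fam159b and Tmem132b the PP and beta cells differed by 0.31 (SE 0.34) and -0.42 (SE 0.36), and neither passed (adjusted p = 0.613 and 0.509 in limma). The Tmem132b difference was 0.19 in library 1 and -1.03 in the joint table, so its place in PP cells was not the same in both. With hormone minimums of 400 Fam159b passed as higher in PP cells, by 0.73 (adjusted p = 0.0170 in limma), and in edgeR Tmem132b passed as lower, at -1.12 (adjusted p = 0.0220).

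Cells that passed for both Sst and Ppy carried the genes at levels that differed from those of delta cells gene by gene. Ptprz1 stood at 1.74 per 10000 UMIs in library 1, beside 1.75 in delta cells, but at 0.925 (0.818 to 1.04) in the joint table, beside 1.67 (1.46 to 1.89), and it was lower than in delta cells in all 3 blocks. Ly6h stood at 2.97 in library 1, beside 2.79, and at 2.03 (1.87 to 2.20) in the joint table, beside 2.66 (2.39 to 2.94). Fam159b stood at 7.79 and 6.58 in the 2 tables, beside 9.08 and 6.52, and Tspan8 at 6.598 and 5.01, beside 4.14 and 3.69. In a comparison added after the class sizes were seen, 0 of 10 genes passed between these cells and delta cells in limma, where 0.0222% of 9007 genes were higher and 0% lower. At an unadjusted p under 0.05 there were 934 genes, among them 1 of the 10, Tspan8, higher by 0.60 (SE 0.14, adjusted p = 0.455) and by 0.67 and 0.54 in the 2 tables. edgeR and DESeq2, run on the summed UMIs, each called Tspan8 alone of the 10 (adjusted p = 0.00678 and 2.48e-04). Of all 9007 genes, edgeR called 4 higher and 1 lower, and DESeq2 called 5 higher and 0 lower. For Ptprz1 the difference was -0.24 (SE 0.36), and the tables differed in sign, 0.21 in library 1 against -0.68 in the joint table. Tspan8 in these cells lay between its delta and its PP level in both tables.

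Cells with both somatostatin and insulin had lower levels per 10000 UMIs than delta cells but closer counts per cell. In the joint table Ptprz1 stood at 0.433 per 10000 in 123 such cells, against 1.67 in delta cells, and in library 1 at 0.415 in 8 cells. Their median depth was 23371 and 42689 UMIs, about 4 times that of delta cells. Counted per cell, they had 1.07 Ptprz1 UMIs in the joint table (0.890 to 1.26) and delta cells 1.02 (0.892 to 1.16). Fam159b came to 4.39 UMIs per cell (4.03 to 4.78) in Sst plus insulin cells, 3.98 (3.73 to 4.24) in delta cells and 0.308 in beta cells.

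For the 9 genes other than Stmn1, the count per Sst plus insulin cell was 0.99 to 1.26 times the count per delta cell in the joint table and 0.82 to 1.51 times in library 1, and the Poisson intervals overlapped for each of the 9 in both tables. In single blocks they did not overlap for Cd24a and Fam159b in block 1, at 1.40 and 1.30 times, and for Ly6h in block 2, at 1.59 times. Sst itself was 0.95 and 0.73 times. Scrublet, which scores cells for likeness to simulated mixtures of pairs, put 15 of 123 Sst plus insulin cells of the joint table, or 12.2%, among its highest scores, against 0.862% of delta cells and 2.39% of beta cells, and 0 of 8 in library 1. Cells that hold both RNAs and pairs of cells caught together cannot be told apart by these counts.

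**Figure D4:**
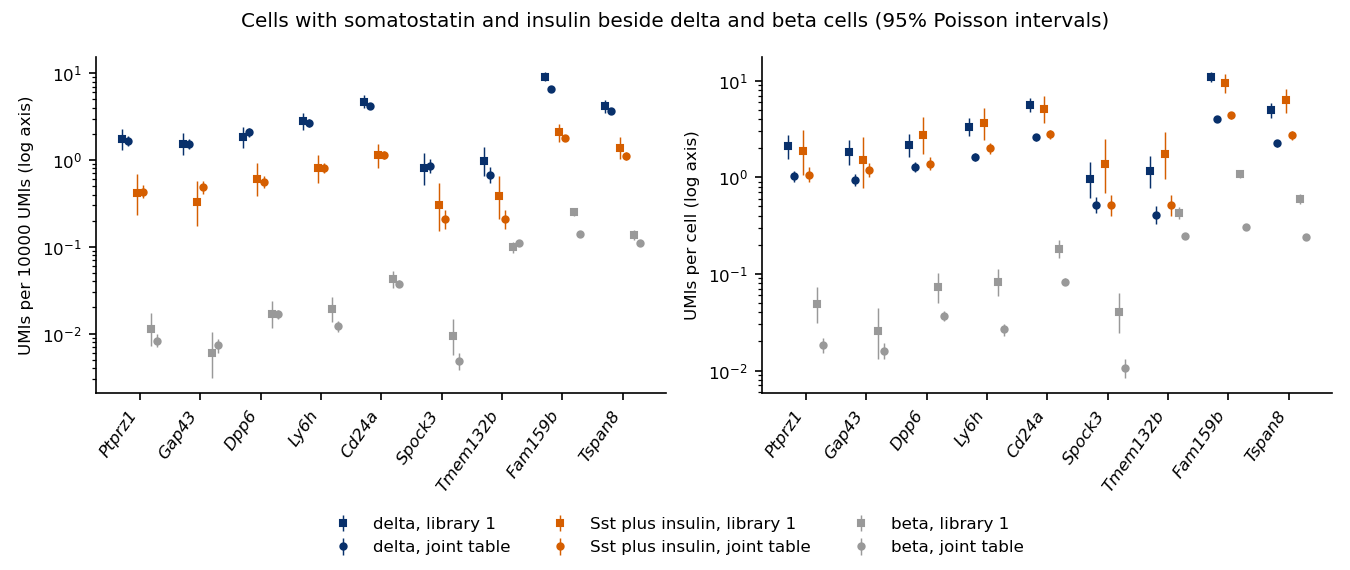
UMIs per 10000 UMIs (left, log axis) and UMIs per cell (right, log axis) of 9 of the genes in delta, Sst plus insulin and beta cells, with squares for library 1, circles for the joint table and 95% Poisson intervals for counting error. On the left the Sst plus insulin cells lie below delta cells, and on the right they lie beside them.

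The study asks about cells that express Neurog3, and its RNA was found in a larger share of delta cells than of beta cells: 9 of 25 in library 1 and 55 of 232 in the joint table had a Neurog3 UMI, against 4 of 470 and 88 of 7190 beta cells at greater depth. Alpha cells had one in 0 of 104 and 1 of 937, at median depths of 14305 and 7703 UMIs. Delta cells with a Neurog3 UMI had Ptprz1 levels of 1.67 and 1.55 per 10000 UMIs in the 2 tables, and those without one had 1.80 and 1.71. Gap43 stood at 1.76 and 2.01 in delta cells with a Neurog3 UMI and at 1.41 and 1.36 in those without. Ly6h stood at 3.76 and 2.94 with and at 2.14 and 2.55 without. Median depth was higher in cells with a Neurog3 UMI, at 13448 against 10188.5 UMIs and 6246 against 5324.

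The planned test of this split could not be run, because library 1 had fewer than 10 delta cells with a Neurog3 UMI. Taken over delta and Sst plus Ppy cells together, 22 and 124 cells with a Neurog3 UMI were set against 45 and 477 without. In limma 0 of 10 genes passed, where 0.0237% of 8432 genes were higher and 0.107% lower. At an unadjusted p under 0.05 there were 442 genes, 3 of them among the 10: Gap43 at 0.40 (SE 0.18, adjusted p = 0.867), Ly6h at 0.31 (SE 0.14, adjusted p = 0.873) and Spock3 at -0.47 (SE 0.23, adjusted p = 0.889). In library 1 and the joint table they were 0.07 and 0.72 for Gap43, 0.35 and 0.27 for Ly6h and -0.64 and -0.30 for Spock3. The SE and p of this fit rest on a spread that limma shares over genes, so they do not measure how far these tables differ. edgeR called Gap43 alone of the 10 (adjusted p = 0.0190) and DESeq2 called 0. Of all 8432 genes, edgeR called 2 higher and 6 lower. With hormone minimums of 400, the planned test over delta cells could be run, and 0 of 10 passed, where 0.0349% of all genes were higher and 0.0466% lower.

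Genes related to the 10 by family or by binding were taken from 6 lists with 74 genes, of which 37 passed the filter. Of the 37, 32 passed it both on their delta columns and on the others, 4 needed their delta columns and 1 needed the others. In limma 7 of these 32 were higher in delta cells than in the mean of beta, alpha and PP cells, 3 were lower and 22 did not pass, where 6.21% of all genes were higher and 6.94% lower. With no centring the 37 relatives split into 30 higher and 2 lower and all genes into 4619 and 177, in place of 533 and 596, since that scaling moved the median of all genes by 0.57. Changes are thus relative to the median gene.

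Among the ligands, partners and kin of Ptprz1, Ptprg and Ncam1 were higher and none was lower. Ptn, which encodes the Ptprz1 ligand pleiotrophin, stood at 0.269 and 0.268 per 10000 UMIs in delta cells of the 2 tables and at 0.00890 and 0.00585 in beta cells, and is given with no test, since it passed the filter only through its delta columns. Schwann-like cells had 13.6 Ptn per 10000 in the joint table, and Ptn was among their leading genes. Ptprg, the phosphatase nearest in kind to Ptprz1, was higher by 1.33 (SE 0.27, adjusted p = 0.00653), and the adhesion molecule Ncam1 by 0.66 (SE 0.12, adjusted p = 0.00267). Contactin 1 (Cntn1), another binding partner, differed by 0.32 (SE 0.25, adjusted p = 0.435) and did not pass.

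Of 3 tested partners of Dpp6, only Kcnip1, a calcium-binding Kv4 subunit, passed, at 1.19 (SE 0.27, adjusted p = 0.0109), and no Kv4 channel gene of the list passed the filter. In the growth-cone and stathmin list 3 were higher. Basp1, a membrane phosphoprotein of growth cones like Gap43, was higher by 1.80 (SE 0.20, adjusted p = 6.06e-05), the neuronal stathmin Stmn3 by 1.01 (SE 0.15, adjusted p = 8.04e-04) and the microtubule protein Dcx by 0.997 (SE 0.25, adjusted p = 0.0204). Marcksl1 passed the filter only through columns other than delta and is given with no test, at 0.0336 and 0.0353 per 10000 in delta cells, 0.104 and 0.111 in alpha cells and 0.0138 and 0.00655 in beta cells.

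Among the Spock, Tmem132 and Shisa families Spock1, a proteoglycan like Spock3, was higher by 2.05 (SE 0.23, adjusted p = 6.06e-05). Shisa2 passed the filter only through its delta columns, at 0.303 and 0.268 per 10000 in delta cells of the 2 tables and at 0.0302 and 0.0603 in beta cells. Ly6e, the 1 tested member of the Ly6 list, did not pass. Of 12 tested tetraspanins, 0 were higher, 3 were lower and 9 did not pass, with a median difference of 0.04 on the log2 scale beside -0.05 over all genes. Cd9 fell by 1.67 on the log2 scale (SE 0.23, adjusted p = 3.52e-04), to 0.135 and 0.134 per 10000 in delta cells against 1.37 and 0.922 in PP cells, Tspan13 fell by 1.26 (SE 0.13, adjusted p = 3.44e-05) and Tspan7 fell by 0.48 (SE 0.11, adjusted p = 0.0121). These are differences from the mean of 3 classes. The mean of Cd9 over cells reached 0.1 per 10000 in 2 delta columns but in only 4 columns of the other classes, so it was not lower in delta cells than in each of them.

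**Figure D5:**
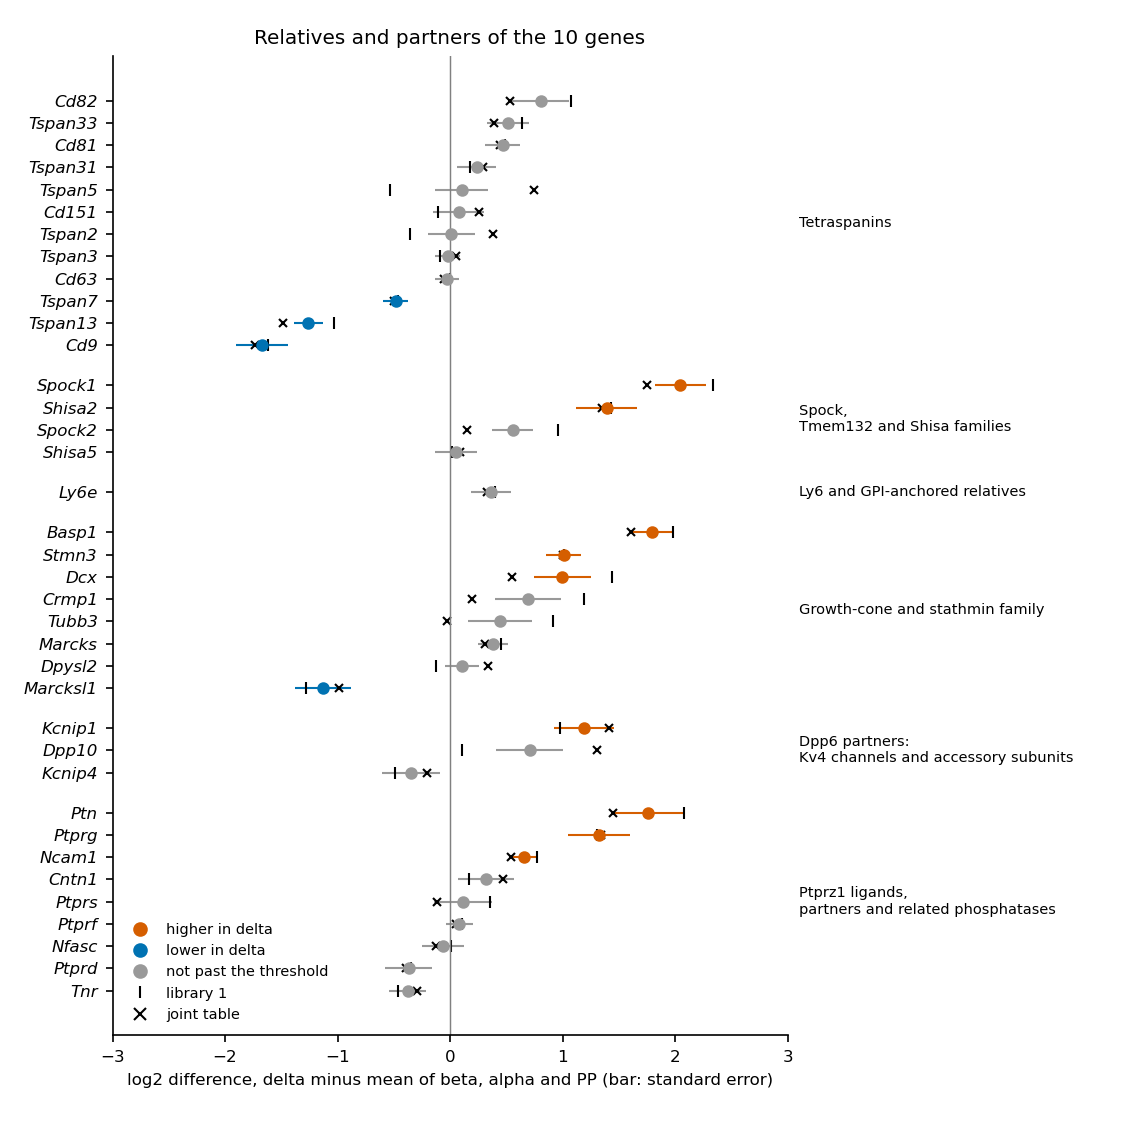
Difference between delta cells and the mean of beta, alpha and PP cells, on the log2 scale relative to the median gene, for 37 relatives in 6 lists, with standard errors as bars, orange and blue where the limma test was passed, and black marks for the value of each table. The tetraspanins hold 3 of the 4 lower genes, and 9 genes of 4 other lists are higher, of which Ptn and Shisa2, like the lower Marcksl1, passed the filter only through columns where they are high.

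The genes most like the set were found by the correlation of log2 levels with the mean standardised profile of the 10 over 28 columns of class and table, among 12328 genes. These points share libraries and depth, and the set itself was chosen for the same pattern, so the values are descriptions. The highest Pearson r was 0.960 for Kcnc2, a voltage-gated potassium channel, followed by Dscam, a neuronal adhesion molecule, at 0.959, Cacna2d2, a calcium-channel subunit, at 0.948, F5, coagulation factor V, at 0.948, Gabrg3, a GABA-A receptor subunit, at 0.945, Cpne4 at 0.940, the ghrelin receptor Ghsr at 0.939 and the imprinted antisense RNA Nespas at 0.939. Among the 10 themselves r ran from 0.976 for Spock3 to 0.00154 for Stmn1, with 0.666 for Cd24a and 0.683 for Tspan8. Cacna2d2 stood at 0.538 and 0.445 per 10000 in delta cells of the 2 tables and at 0.0110 or less in beta, alpha and PP cells. Kcnc2, Ghsr and Nespas each stood at 0.168 in delta cells of library 1, where 3 UMIs make 0.101, so their r rests on few UMIs there. For Ptprz1 alone the most alike gene was Gap43, at 0.973. Outside the 10 the closest were Ncam2, an adhesion molecule, at 0.919, Creg2 at 0.912 and the guidance factor Sema3e at 0.903. Schwann-like cells of the joint table were 1 of the 28 columns, so UMIs there were part of this choice. These 3 genes stood there at 0.468, 0.351 and 0.585 per 10000, where 3 UMIs make 0.351.

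In the joint table the level of the set was lower near the Sst limit. Summed over the 10 genes, single-hormone cells of the joint table with Sst of 200 to 400 per 10000 UMIs had 13.0 per 10000 in 18 cells, and those at 400 or more had 25.3 in 214 cells. Cells below every hormone minimum with Sst of 100 to 200 had 6.34 per 10000 in 5 cells, from 4 UMIs. Those with Sst of 50 to 100 had 7.73 in 10 cells, from 12 UMIs. Median depth was 5657 UMIs at 400 or more, 2246.5 at 200 to 400, 1250 at 100 to 200 and 1549 at 50 to 100. In library 1 the 1 cell at 200 to 400 had 34.9 per 10000, above the 27.6 of the 24 delta cells at 400 or more, and the 1 cell at 100 to 200 had 10.4. Values near the limit chose the cells and are given with no test.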

How the data were processed

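Islet cells of 3 labelled replicates were profiled with 10x 3-prime chemistry. Per the submitters' processing notes, Cell Ranger 3.2.0 and 5.0.0, Seurat 4.0.0, FastQC 0.11.8, cutadapt 2.5 and the build mm10 were used, and the role of each step is not given in the sources used here. The authors deposited raw UMI counts for replicate 1 (1146 cells, 27474046 UMIs) and, for replicates 2 and 3 together, natural log values of 1 plus UMIs per 10000. From the values, 100% of the 35558086 nonzero entries of the joint table came back as whole UMIs within a relative tolerance of 0.001, and 3008 of its 16050 columns were left out as copies, which left 13042 cells and 196833349 UMIs.

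A cell was kept if it had 500 genes and 1000 UMIs or more and no more than 20% of UMIs from mitochondrial genes. Levels are summed UMIs per 10000 with exact 95% Poisson intervals, and shares have exact binomial intervals. Both cover counting error only. Non-endocrine classes needed UMIs of at least 3 markers. The 2 tables were joined on 15904 symbols, 163 of them matched as RefSeq synonyms. limma 3.58.1 in R 4.3.3 was fitted to log2 of the mean per 10000 plus 0.05, with columns of at least 10 cells, centred on their median, with the table as a block, over genes at 0.1 or more in at least 2 columns. An adjusted p under 0.05 passed. Because the joint table is on a log scale, edgeR 4.0.16 and DESeq2 1.42.0 were alternatives on the recovered UMIs. No doublet caller was used in the main result, and removal of the highest Scrublet scores (scanpy 1.11.5) was an alternative. Nothing in the labels gives the batch or mice behind a barcode block, so p-values rest on the spread between the tables, moderated over genes, which may be technical.

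The members and lists were chosen with earlier results of these data known. All 10 genes are named, with up to 12 relatives of largest change among those that passed, the 8 genes most like the set and the 3 most like Ptprz1. Tspan7, Cntn1 and Ly6e were named after their values were seen. The fits were tested on simulated data. Some marker results are not reported here.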

Additional observations from a re-analysis of the deposited data

How the results depend on the processing

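No call reversed its direction under any alternative that was run. Among the 10 genes, alpha against beta cells gave 4 calls in place of 2 with no centring, in edgeR and in DESeq2. PP against beta cells gave 6 in edgeR, 5 in DESeq2 and 5 with hormone minimums of 400, in place of 1, and PP against alpha cells gave 6 in edgeR, 5 in DESeq2, 5 with hormone minimums of 400, 3 with no centring, 3 with hormone RNA out of the totals, and 2 with a pseudocount of 0.5, with no filter on low values and with no replicate block, in place of 4. These counts include the 7 genes that passed the filter only through columns where they are high, and 1 of the 4 calls is Ly6h, for which no test is given above. They show how the number of calls moved with the processing and are no result about those genes. The calls over all genes are given below or with each comparison. Sst plus Ppy against delta cells gave 1 in edgeR and 1 in DESeq2 in place of 0, and the Neurog3 split gave 1 in edgeR in place of 0. Relatives higher in delta cells numbered 17 with a pseudocount of 0.5, 15 with no filter, 30 with no centring and 15 in edgeR, in place of 9. Relatives lower numbered 20 with no filter and 2 with no centring, in place of 4. The cause of these shifts was not tested.

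Over all genes, higher and lower calls in alpha against beta cells were 652 and 626, with 1157 and 3421 without the filter, 1836 and 1999 in edgeR, 1139 and 1242 in DESeq2 and 431 and 433 with no replicate block. PP against beta cells gave 664 and 516, with 614 and 331 at a pseudocount of 0.5, 1777 and 274 with no centring, 1335 and 1465 in edgeR, 929 and 837 in DESeq2, 853 and 795 with hormone RNA out of the totals and 382 and 300 with no replicate block. PP against alpha cells gave 188 and 168, with 110 and 233 at a pseudocount of 0.5, 109 and 131 with no filter, 94 and 807 with no centring, 483 and 420 in edgeR, 290 and 241 in DESeq2 and 63 and 86 with no replicate block. Delta cells against the mean of the 3 classes gave 533 and 596, with 1108 and 1039 at a pseudocount of 0.5, 1211 and 4129 with no filter, 581 and 304 in DESeq2 and 370 and 309 with no replicate block. In edgeR this comparison gave 718 and 525. With hormone minimums of 400, PP cells gave 722 and 624 against beta cells and 161 and 158 against alpha cells, of 8572 genes. With hormone RNA out of the totals, PP against alpha cells gave 260 and 161 of 10148 genes. The setting with no filter tested 15811 genes.

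The replicate block is the table. Without it 2 of the 10 genes were called in alpha against beta cells, 1 in PP against beta cells, 2 in PP against alpha cells and 0 in each comparison of somatostatin cells, and the relatives gave 9 higher and 4 lower. The counts among alpha, beta and PP cells again include the 7 genes that passed the filter only through delta columns. Left with 1 table, a difference has no test: Fam159b in alpha against beta cells ran from -3.08 to -1.496, Tmem132b in PP against alpha cells from 0.96 to 2.59 and Dcx from 0.55 to 1.44. With 25 delta and 3 Schwann-like cells, library 1 limits every value that rests on it.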
